A study of Mus musculus with 8 samples.

Results

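The genes described here encode 8 receptor chains through which basophils can sense IL-33, IL-18, TSLP, IL-7 and IL-4: Il1rl1, Il1rap, Il18r1, Il18rap, Il7r, Crlf2, Il2rg and Il4ra. They were chosen by gene symbol, not by any measured value, from the 55487 genes of the deposited tables, and their level is the TPM, transcript abundance corrected for length and scaled to the same total in each library, summed over all annotated transcripts of a gene. RNA came from 2 populations sorted from the bone marrow of C57BL/6J mice. Both were lineage-, CD34-, ckit- and CD200R3+ cells, and they differed in staining with the FcεRIα antibody MAR1, which was intermediate on basophils and high on pre-Baso. The 4 groups were floxed out basophils, ctrl basophils, floxed out pre-Baso and ctrl pre-Baso, with 2 libraries each. Floxed out animals are described as Nfil3-depleted and ctrl animals as wild type littermates. The labels name no Cre driver, age or sex, and they call the 2 libraries of a group biological duplicates.

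IL-1 family cytokines signal through pairs of chains. IL-33 binds the ST2 chain encoded by Il1rl1 and IL-18 binds the alpha chain encoded by Il18r1, and each complex then takes up an accessory chain, encoded by Il1rap for IL-33 and by Il18rap for IL-18, so that MyD88 and IRAK kinases can be recruited. TSLP binds the Crlf2 chain, which pairs with the IL-7 receptor alpha chain encoded by Il7r, and Il7r pairs with the common gamma chain encoded by Il2rg to bind IL-7. Il4ra forms the IL-4 receptor with Il2rg, and these receptors signal through JAK kinases and STAT factors. Mouse basophils are known to release IL-4 after IL-33 or IL-18, and TSLP is known to support their expansion.

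Nfil3, the targeted gene, was at 0.853 and 1.32 TPM in floxed out basophils, against 20.5 and 22.5 TPM in ctrl basophils, and at 0 and 0.624 TPM in floxed out pre-Baso, against 6.61 and 7.65 TPM in ctrl pre-Baso. The basophil protease gene Mcpt8 was also low in the 4 floxed out libraries (1.98 to 6.04 TPM) compared with the 4 ctrl libraries (969 to 7890 TPM). Each library had 271.7 to 398.0 megabases assigned to genes, of which the receptor chains took between 1.4 kilobases (Il4ra) and 108.3 kilobases (Il18rap), so that Il4ra is the least precise of them. Protein-coding genes held 18.37 to 21.99% of all TPM, and changes are given on the log2(TPM + 1) scale, which understates those of low genes. Ctrl basophil library 1 stood apart by eosinophil granule genes, with Prg2 at 2350 TPM, against 12.5 to 152 TPM in the other 7 libraries. Of 10 neutrophil markers 8 were called higher in basophils over both genotypes, where 20.4% of all genes tested were. Their summed levels were 1360 to 2250 TPM in floxed out and 1450 to 2540 TPM in ctrl basophils. In pre-Baso the sums were 892 to 1240 TPM in floxed out and 796 to 910 TPM in ctrl libraries. In such bulk samples, fewer cells of a type and less RNA per cell cannot be told apart.

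**Figure D1:**
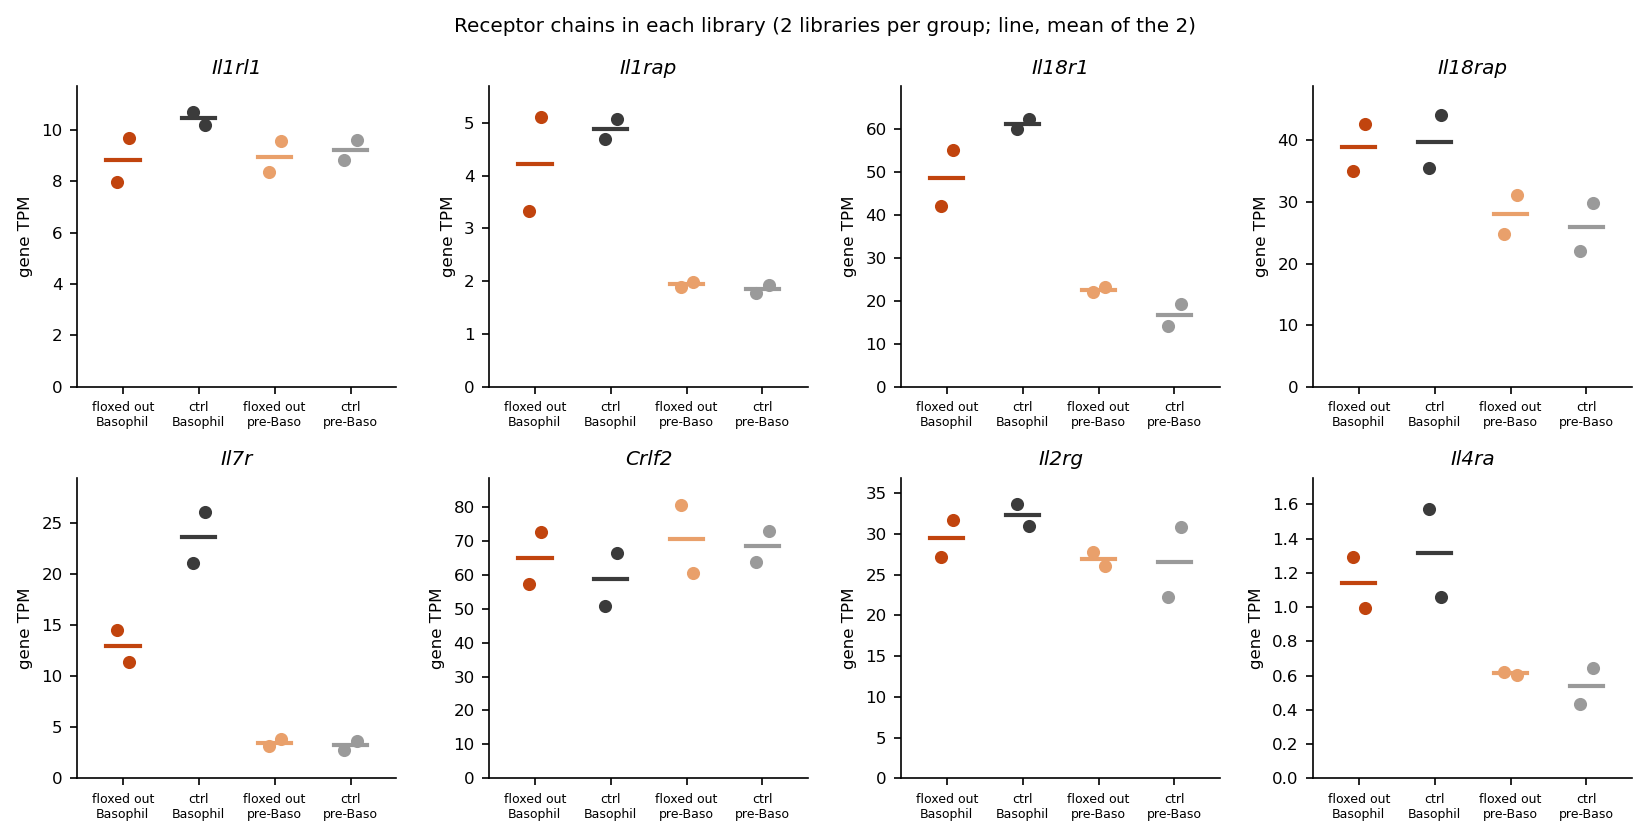
Level of each receptor chain gene in TPM (y axis, from 0) in the 8 libraries, by group (x axis); each point is 1 library and each line the mean of 2. Il18r1, Il1rap, Il18rap, Il7r and Il4ra lie higher in all basophil than in all pre-Baso libraries, whereas Il1rl1, Crlf2 and Il2rg overlap.

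Reads were assigned to all 8 chains in both populations, at levels that spanned from 0.435 TPM (Il4ra in a ctrl pre-Baso library) to 80.6 TPM (Crlf2 in a floxed out pre-Baso library). In pre-Baso, Il4ra stayed under 1 TPM in every library. Crlf2 had the highest mean in floxed out pre-Baso (70.5 ± 14.3 TPM, SD, n = 2), in ctrl pre-Baso (68.4 ± 6.48 TPM) and in floxed out basophils (65.0 ± 10.8 TPM). In ctrl basophils the means of Il18r1 (61.2 ± 1.64 TPM) and Crlf2 (58.7 ± 11 TPM) stood first, and their libraries overlapped. Il18rap and Il2rg overlapped in both pre-Baso groups, and Il18r1 and Il18rap overlapped in floxed out basophils; no other neighbours in the order overlapped in any group. Il7r ranked above Il1rl1 in basophils and under it in pre-Baso. Il4ra was lowest in each group, and Il1rap was next to it.

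Between basophils and pre-Baso, 5 of the 8 chains were higher in basophils at an adjusted p under 0.05 over both genotypes: Il7r, Il18r1, Il1rap, Il18rap and Il4ra. None was lower. Over all 12511 genes tested, 33.7% were called in this comparison, 20.4% as higher (2547 higher and 1669 lower; with median-ratio scaling 2226 and 2319). The same 5 chains had all 4 basophil libraries above all 4 pre-Baso libraries, which was so for 21.3% of genes; 0 chains were lower in that way, against 13.1% of genes. All 8 chains passed the filter of at least 1 TPM in 2 libraries, but Il4ra did so only through basophil libraries and therefore had to differ; it lends no weight to the count. The median change of all genes was 0.09. Without ctrl pre-Baso library 1, floxed out pre-Baso library 1 or floxed out basophil library 2, the number of chains called was 3 each time.

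Within ctrl animals 3 of the 8 chains were called, all higher in basophils (Il7r, Il18r1 and Il1rap), where 22.6% of genes were called and 12.6% were higher. Without ctrl pre-Baso library 1 the adjusted p of Il1rap was 0.054. Within floxed out animals the same 3 were called, where 10.9% of genes were called and 6.79% were higher. Those calls rest on few libraries: without floxed out pre-Baso library 1, none of the 8 was called (19 genes in all, against 1363), and without floxed out pre-Baso library 2 or floxed out basophil library 2 only Il7r was. Leaving out ctrl basophil library 1, the one with eosinophil genes, left 3 chains called within ctrl animals and 4 over both genotypes.

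**Figure D2:**
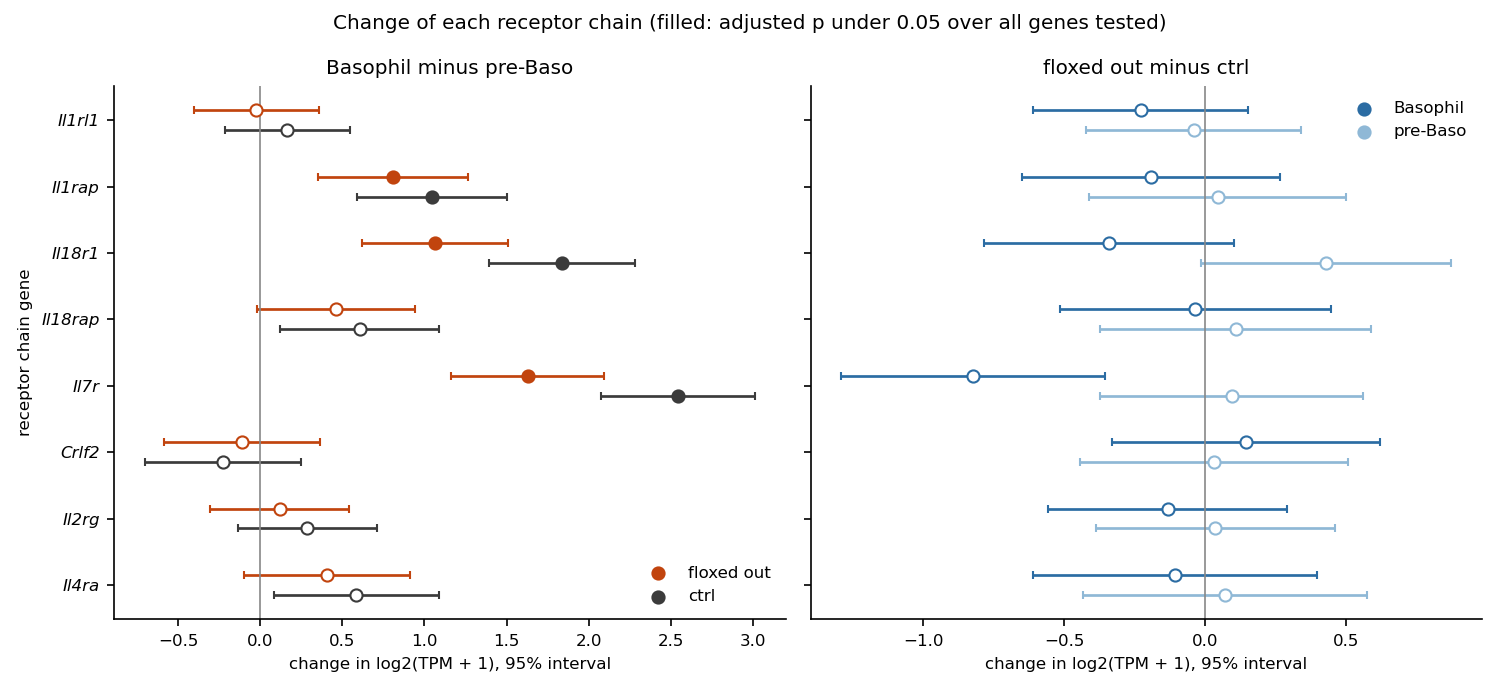
Change of each receptor chain gene in log2(TPM + 1) (x axis) with its 95% interval, for basophils minus pre-Baso in floxed out and ctrl animals (left panel) and for floxed out minus ctrl in basophils and pre-Baso (right panel). Filled points have an adjusted p under 0.05; Il7r, Il18r1 and Il1rap are filled in both genotypes on the left, and no point is filled on the right.

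Il1rl1, the IL-33-binding chain, did not differ detectably between the populations. It was at 7.95 and 9.70 TPM in floxed out basophils and 10.7 and 10.2 TPM in ctrl basophils, against 8.35 and 9.57 TPM in floxed out pre-Baso and 8.84 and 9.61 TPM in ctrl pre-Baso. The floxed out basophil libraries lay at the low and the high end of the pre-Baso values, and the ctrl basophil libraries lay just above them. Over both genotypes the change was 0.07 ± 0.12 (SE), with a 95% interval of -0.20 to 0.34 (limma, adjusted p = 0.682). A doubling or a halving of TPM + 1 lies outside that interval, and with median-ratio scaling the estimate was -0.03.

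Il1rap, the accessory chain of the IL-33 and IL-1 receptors, rose in basophils. Its levels were 3.34 and 5.11 TPM in floxed out basophils and 4.69 and 5.07 TPM in ctrl basophils, against 1.89 and 1.99 TPM in floxed out pre-Baso and 1.77 and 1.93 TPM in ctrl pre-Baso. The lowest basophil library was still well above the highest pre-Baso library, and the 2 floxed out basophil libraries differed more from each other than any other pair. The change over both genotypes was 0.93 ± 0.14, a factor of 1.90 on TPM + 1 (adjusted p = 0.00188). It was 0.81 in floxed out animals (adjusted p = 0.0377) and 1.05 in ctrl animals (adjusted p = 0.00828). The call in floxed out animals was lost in 12 of 20 alternative settings, among them the omission of any single library, with adjusted p up to 0.181.

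Mouse Il1rl1 (1:40429570-40465415, plus strand, GRCm38) is annotated with a distal and a proximal first exon and with transcripts that end either early, as soluble ST2, or at a last exon that carries the membrane form. In mice the distal start is known from mast cells and type 2 T cells and the proximal one from fibroblasts, and the distal promoter is known for its GATA sites. The 250 bases before each start are shown because the first exons were read separately here; capitals mark GATAA, or TTATC on the other strand (RefSeq windows, GRCm38.p6, plus strand, distal chr1:40429320-40429569 and proximal chr1:40439379-40439628).
Il1rl1 distal: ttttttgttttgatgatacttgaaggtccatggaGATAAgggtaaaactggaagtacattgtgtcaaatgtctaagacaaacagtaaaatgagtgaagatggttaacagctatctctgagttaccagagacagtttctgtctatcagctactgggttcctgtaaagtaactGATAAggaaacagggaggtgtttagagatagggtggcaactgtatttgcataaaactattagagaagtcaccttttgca
Il1rl1 proximal: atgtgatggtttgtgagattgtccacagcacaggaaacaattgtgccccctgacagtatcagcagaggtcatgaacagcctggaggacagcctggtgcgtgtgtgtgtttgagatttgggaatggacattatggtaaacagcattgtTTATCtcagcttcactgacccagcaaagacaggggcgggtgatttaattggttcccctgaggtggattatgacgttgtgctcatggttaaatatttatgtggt
The distal window held 2 matches and the proximal window 1. Of 32851 RefSeq windows of this length, 22.6% held at least 1 match on either strand and 4.28% at least 2.

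Reads lay on the distal first exon (1:40429570-40429630) in 5 of 8 libraries and on the proximal one (1:40439627-40439856) in 1. Distal exon coverage, scaled to TPM within each library, was 0 and 5.39 in floxed out basophils and 0 in both ctrl basophil libraries, against 1.36 and 2.04 in floxed out pre-Baso and 0.663 and 2.53 in ctrl pre-Baso. All 4 pre-Baso libraries had such reads, but the highest value belonged to a basophil library, so the populations overlap. The proximal exon was covered only in ctrl basophil library 2, at 0.453. These exons are 61 and 230 bases long, and coverage of the 6 exons shared by all forms was 4.04 to 6.62 on the same scale, so few reads are behind each of these values. The one annotated transcript with the distal exon ends early, so reads on that exon can be assigned to it alone, which limits how the transcript levels can be read.

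In the estimated split, transcripts of the membrane form took most of the Il1rl1 TPM. Their share was 76.6 and 78.3% in floxed out basophils and 84.5 and 81.7% in ctrl basophils, against 80.3 and 72.7% in floxed out pre-Baso and 76.8 and 94.1% in ctrl pre-Baso. The 2 ctrl pre-Baso libraries spanned nearly the whole range. The mean was 80.3% in basophils and 81.0% in pre-Baso (exact permutation test, two-sided, 70 splits of 8 libraries, p = 0.914), and 77.0% in floxed out and 84.3% in ctrl libraries (p = 0.114). With a library left out, the difference, floxed out minus ctrl, was largest without ctrl pre-Baso library 1 (-9.79 percentage points). It was smallest without ctrl pre-Baso library 2 (-4.02 percentage points). By assigned bases in place of TPM the share was 88.6% in floxed out and 92.3% in ctrl libraries (exact permutation test, p = 0.143). The ratio of last exon to shared exon coverage was 1.75 in floxed out and 1.76 in ctrl libraries (exact permutation test, p = 0.943). The last exon of the soluble form was covered at 2.39 and 2.33 in floxed out basophils and 2.32 and 2.78 in ctrl basophils, against 1.59 and 2.38 in floxed out pre-Baso and 1.80 and 0 in ctrl pre-Baso.

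Il18r1, the IL-18-binding chain, rose in basophils of both genotypes. Its levels were 41.9 and 55.1 TPM in floxed out basophils and 60.0 and 62.3 TPM in ctrl basophils, against 22 and 23.1 TPM in floxed out pre-Baso and 14.1 and 19.2 TPM in ctrl pre-Baso. The 4 groups did not overlap with one another: ctrl basophils were highest, floxed out basophils next, then floxed out and ctrl pre-Baso. Over both genotypes the change was 1.45 ± 0.14, a factor of 2.73 on TPM + 1 (adjusted p = 0.000235). It was 1.06 ± 0.19 in floxed out animals (adjusted p = 0.0152) and 1.84 ± 0.19 in ctrl animals (adjusted p = 0.000763). Over 19 alternative settings the change over both genotypes ranged between 1.29 and 1.55, with adjusted p of at most 0.00378.

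Il18rap, the accessory chain of the IL-18 receptor, was at 35.1 and 42.6 TPM in floxed out basophils and 35.5 and 44.1 TPM in ctrl basophils, against 24.8 and 31.2 TPM in floxed out pre-Baso and 22.1 and 29.8 TPM in ctrl pre-Baso. The basophil libraries were all above the pre-Baso libraries, though by a narrow gap. The change over both genotypes was 0.53 ± 0.15, a factor of 1.45 on TPM + 1 (adjusted p = 0.0255). Its estimate was 0.46 in floxed out animals (adjusted p = 0.196) and 0.61 in ctrl animals (adjusted p = 0.0724). With the replicate number as a block the adjusted p in ctrl animals was 0.0272. Over both genotypes it was 0.0769 without ctrl pre-Baso library 1, 0.0889 without floxed out pre-Baso library 1, 0.0757 without ctrl basophil library 2 and 0.0808 without floxed out basophil library 2.

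Il7r, the alpha chain shared by the receptors for TSLP and IL-7, showed the largest change of the 8 chains between the populations. Its levels were 14.5 and 11.4 TPM in floxed out basophils and 21.1 and 26.1 TPM in ctrl basophils, against 3.15 and 3.83 TPM in floxed out pre-Baso and 2.76 and 3.67 TPM in ctrl pre-Baso. Every basophil library was above every pre-Baso library, and within basophils both floxed out libraries were under both ctrl libraries. The change over both genotypes was 2.09 ± 0.14, a factor of 4.25 on TPM + 1 (adjusted p = 9.46e-05), which ranked 33rd by p among the 12511 genes. It was 1.63 ± 0.20 in floxed out animals (adjusted p = 0.00508) and 2.55 ± 0.20 in ctrl animals (adjusted p = 0.000384). Without floxed out pre-Baso library 1 the adjusted p in floxed out animals was 0.0594; without ctrl basophil library 1 the change in ctrl animals was 2.69 (adjusted p = 0.00164).

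Other marrow cells that carry Il7r have their own marker genes. Among T and NK cell markers Trac, Cd247, Klrb1c, Ncr1 and Gzma were at 0 in all 8 libraries, and Nkg7 made up most of that list's sum of 57.6 to 78.2 TPM in floxed out and 56.1 to 69.9 TPM in ctrl basophils, against 130 to 179 TPM in floxed out and 158 to 188 TPM in ctrl pre-Baso. Among B cell markers Pax5 was at most 0.277 TPM and Rag1 at most 0.0762 TPM, but Ighm was higher in basophils (6.34 to 16.9 TPM, against 1.63 to 5.37 TPM in pre-Baso, adjusted p = 0.00535). The B cell list summed to 18.8 to 37.6 TPM in floxed out and 21.6 to 29.2 TPM in ctrl basophils, against 16.9 to 20.6 TPM in floxed out and 13.4 to 15.0 TPM in ctrl pre-Baso. The list for group 2 innate lymphoid cells summed to at most 79.8 TPM in floxed out and 116 TPM in ctrl basophils, against at most 39.2 TPM in floxed out and 41.2 TPM in ctrl pre-Baso. Most of that was Ltb (63.7 to 105 TPM in basophils, against 15.4 to 18.8 TPM in pre-Baso), with Areg at 0 and Bcl11b at most 0.0315 TPM. Of the 4 tested genes on the same list, 3 were higher in basophils and 1 was lower. The higher ones were Ltb, Rora (0.66, limma adjusted p = 0.00768) and Il17rb (0.67, limma adjusted p = 0.0177). Rora passed the filter through basophil libraries alone. Thy1 was lower in basophils (2.03 to 6.43 TPM, against 13.0 to 18.6 TPM in pre-Baso, -1.69, limma adjusted p = 0.00215). The part of these lists, and of the neutrophil list, in the Il7r difference was not tested.

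Crlf2, the TSLP-binding chain, did not differ detectably. It was at 57.4 and 72.6 TPM in floxed out basophils and 50.9 and 66.5 TPM in ctrl basophils, against 80.6 and 60.4 TPM in floxed out pre-Baso and 63.8 and 73.0 TPM in ctrl pre-Baso. All 4 groups overlapped. Over both genotypes the change was -0.17 ± 0.15, with a 95% interval of -0.51 to 0.17 (adjusted p = 0.415).

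Il2rg, the common gamma chain, was at 27.2 and 31.7 TPM in floxed out basophils and 33.6 and 30.9 TPM in ctrl basophils, against 27.8 and 26.1 TPM in floxed out pre-Baso and 22.3 and 30.8 TPM in ctrl pre-Baso. The populations overlapped, and the change was 0.20 ± 0.13 with a 95% interval of -0.10 to 0.50 (adjusted p = 0.269). Il4ra, the IL-4-binding chain, was at 1.29 and 0.997 TPM in floxed out basophils and 1.57 and 1.06 TPM in ctrl basophils, against 0.623 and 0.604 TPM in floxed out pre-Baso and 0.435 and 0.643 TPM in ctrl pre-Baso. Every basophil library was above every pre-Baso library, but each value rests on 1.4 to 3.6 kilobases of assigned sequence. The change over both genotypes was 0.50 ± 0.16 (adjusted p = 0.0393), and the call was lost in 9 of 18 alternative settings. Omitting any single library except ctrl basophil 2 was enough, with adjusted p between 0.0567 and 0.126; it was 0.126 without ctrl basophil library 1, the one with eosinophil genes.

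**Figure D3:**
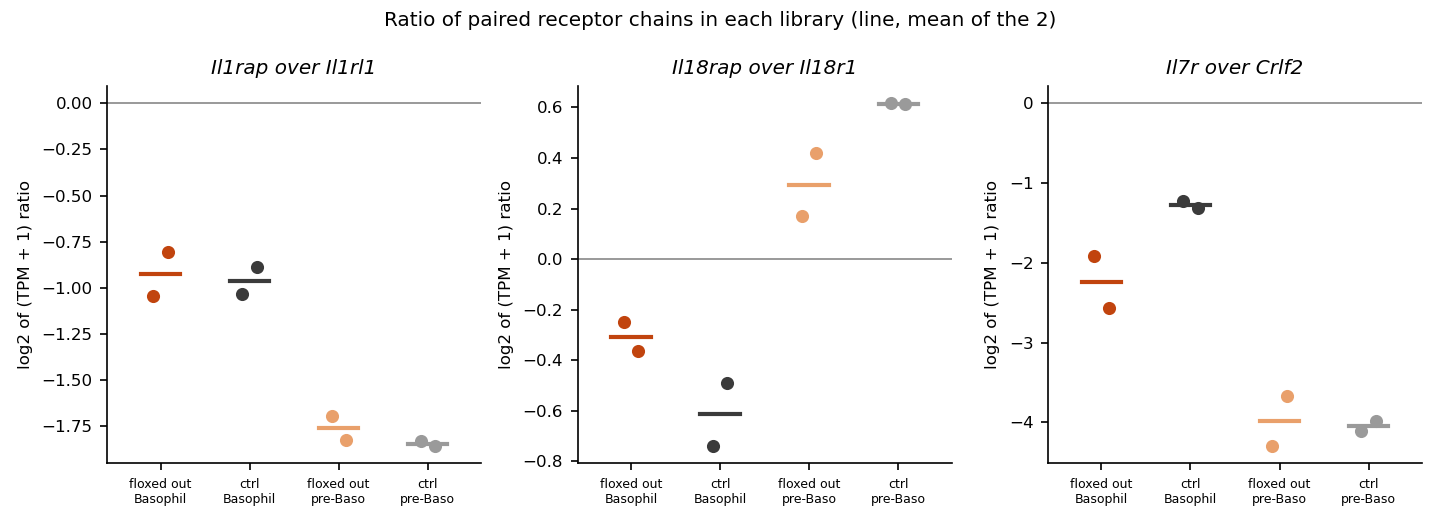
Log2 ratio of the TPM + 1 of 2 paired receptor chains (y axis) in the 8 libraries, by group (x axis); each point is 1 library and each line the mean of 2. In each panel the 4 basophil libraries lie apart from the 4 pre-Baso libraries; for Il7r over Crlf2 the floxed out basophil libraries also lie under the ctrl basophil libraries.

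The balance between paired chains was also compared, as the ratio of the 2 chains of each receptor. Il1rap reached 0.420 and 0.527 of the Il1rl1 TPM in floxed out basophils and 0.440 and 0.495 in ctrl basophils, against 0.226 and 0.208 in floxed out pre-Baso and 0.200 and 0.201 in ctrl pre-Baso. On the log2 scale with 1 added to each TPM the mean difference was 0.86. For IL-18, by summed TPM, the accessory chain was the scarcer one in basophils and the more abundant one in pre-Baso. Il18rap over Il18r1 was 0.837 and 0.773 in floxed out basophils and 0.592 and 0.708 in ctrl basophils, against 1.13 and 1.35 in floxed out pre-Baso and 1.57 and 1.56 in ctrl pre-Baso. That log2 difference was -0.92. Summed TPM depends on the estimated split between transcripts, which was unstable for Il18r1, Il7r and Crlf2. No ratio was computed from joined exons, so which chain is scarcer is less sure.

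Il7r was a minor partner of Crlf2 everywhere and least so in ctrl basophils. Il7r over Crlf2 was 0.253 and 0.157 in floxed out basophils and 0.415 and 0.393 in ctrl basophils, against 0.0390 and 0.0635 in floxed out pre-Baso and 0.0433 and 0.0504 in ctrl pre-Baso, a log2 difference of 2.26. Each of these 3 differences had the smallest p that 70 splits of 8 libraries allow (exact permutation test, two-sided, p = 0.0286). After Benjamini-Hochberg adjustment over the 6 ratio comparisons made, p was 0.0571. A ratio cannot reach the smallest p in both of its comparisons, so no outcome could have passed 0.05. The adjusted p therefore decides nothing here. Floxed out minus ctrl, the differences were 0.06 (p = 0.686), -0.01 (p = 1.0) and -0.45 (p = 0.6) for the 3 ratios in the same order, by the same exact test. It shuffled libraries across both populations, so the population difference counted as spread, and genotype within a population was not tested. Il7r over Crlf2 lay lower in floxed out basophils and overlapped in pre-Baso. Il18rap over Il18r1 lay higher in floxed out basophils and lower in floxed out pre-Baso, without overlap.

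Removal of Nfil3 gave no call for any of the 8 chains, in basophils or in pre-Baso. In basophils 0.0560% of the genes tested were called for genotype, in pre-Baso 0.0639% and over both populations 0.0879%, so few genes passed in these comparisons at all. Il7r in basophils came nearest: 14.5 and 11.4 TPM in floxed out against 21.1 and 26.1 TPM in ctrl, a change of -0.82 ± 0.20 with a 95% interval of -1.29 to -0.36 (limma, unadjusted p = 0.00345, adjusted p = 0.288). Over 20 alternative settings that change was between -0.99 and -0.66 and its adjusted p between 0.188 and 0.772. In pre-Baso Il7r was at 3.15 and 3.83 TPM in floxed out against 2.76 and 3.67 TPM in ctrl, a change of 0.10 (95% interval -0.37 to 0.56). The difference between these 2 genotype effects was -0.92 ± 0.29 (unadjusted p = 0.0123, adjusted p = 0.888); 0 genes passed in that comparison, and 689 had an unadjusted p under 0.05.

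Il18r1 lay lower in floxed out than in ctrl basophils (41.9 and 55.1 against 60.0 and 62.3 TPM) and higher in floxed out than in ctrl pre-Baso (22 and 23.1 against 14.1 and 19.2 TPM), without overlap in either. The changes were -0.34 (95% interval -0.79 to 0.10, adjusted p = 0.693) and 0.43 (-0.01 to 0.88, adjusted p = 1), and neither was called. Il1rl1 also lay lower in floxed out basophils without overlap (7.95 and 9.70 against 10.7 and 10.2 TPM, change -0.23, 95% interval -0.61 to 0.16, adjusted p = 0.776). Thus 3 of 8 chains lay lower without overlap in floxed out basophils, where 21.4% of all genes did, and 0 lay higher, against 17.2% of genes. In floxed out pre-Baso 1 of 8 lay higher, where 11.2% of genes did, and 0 lay lower, against 19.3%.

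Intervals show what size of genotype effect these data could still hold. For Il1rap the 95% interval was -0.65 to 0.27 in basophils and -0.41 to 0.50 in pre-Baso, and for Il18rap it was -0.52 to 0.45 and -0.37 to 0.59. Crlf2 had -0.33 to 0.62 in basophils and -0.44 to 0.51 in pre-Baso, and Il2rg had -0.56 to 0.29 and -0.39 to 0.46. Il4ra had -0.61 to 0.40 and -0.43 to 0.58. A change by a factor of 2 on TPM + 1 lies outside the interval for Il1rap, Il18rap, Crlf2 and Il2rg in both populations. Changes within the intervals are not excluded. Il4ra is too low for that reading: at 0.435 and 0.643 TPM in ctrl pre-Baso, even its loss could not halve TPM + 1. Its intervals do not exclude a halving of its TPM.

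**Figure D4:**
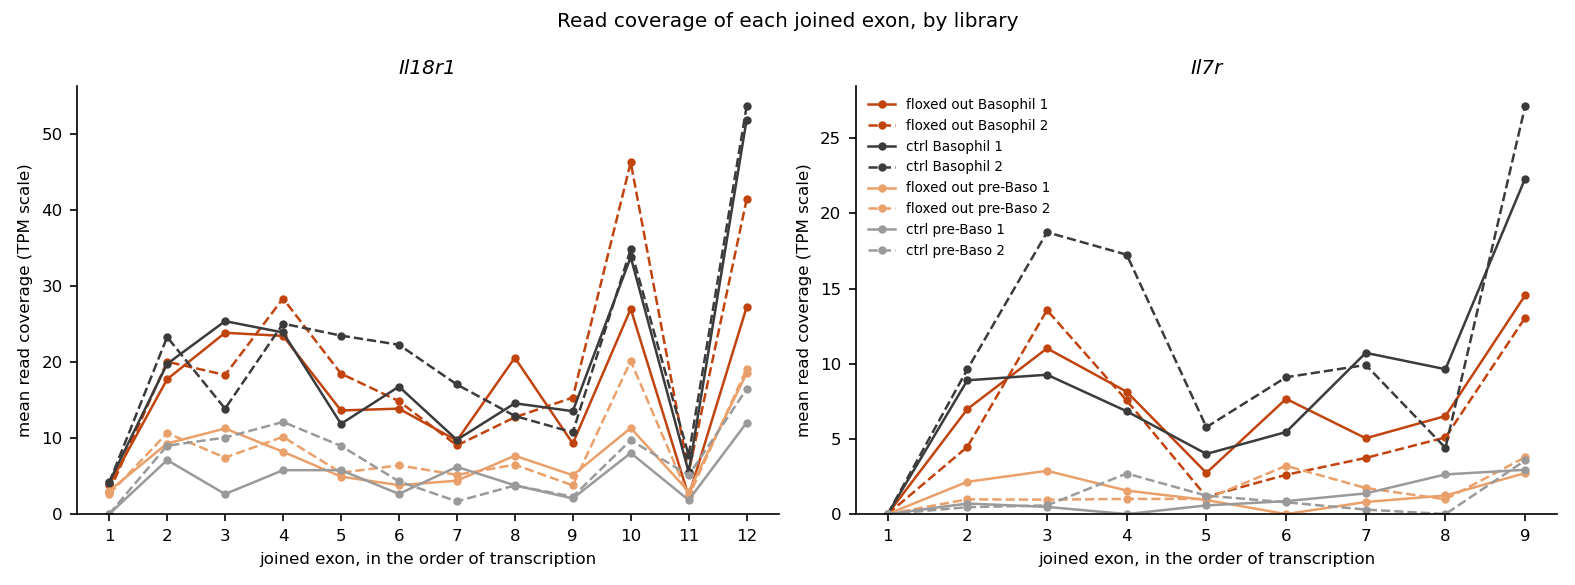
Mean read coverage, scaled to TPM (y axis, from 0), of each joined exon (x axis, in the order of transcription) of Il18r1 and Il7r; each line is 1 library, and joined exons merge the overlapping exons of all transcripts. The 4 basophil lines lie above the 4 pre-Baso lines in 10 of 12 exons of Il18r1 and in 6 of 8 covered exons of Il7r.

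The differences between populations could be followed exon by exon. All 4 basophil libraries were above all 4 pre-Baso libraries in 10 of 12 joined exons of Il18r1, 6 of 8 covered joined exons of Il7r, 6 of 13 of Il18rap, 4 of 12 of Il1rap and 3 of 11 of Il4ra. In Il1rl1, Crlf2 and Il2rg that was so for 0 exons, and in none of the 8 genes was any exon lower without overlap in basophils. Reads piled on the last exon, which held 75.6 to 85.1% of the assigned bases of Il7r, 63.8 to 74.8% of Il18r1 and 68.4 to 71.6% of Il18rap. With the last exon left out, an alternative added after seeing this, 4 of the 5 chains were still called over both genotypes, and Il4ra was not (adjusted p = 0.236). The Il18r1 difference between genotypes in basophils was -0.04 in that setting, against -0.34 with all exons, and 5 of 12 exons were lower without overlap in floxed out basophils.

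The estimated split of a gene between its transcripts was unstable for 3 chains, so their levels are given per gene only. For Il7r, 2 transcripts of nearly the same length traded places: the first (ENSMUST00000003981) was at 12.3 and 0.081 TPM in floxed out and 0.129 and 23.0 TPM in ctrl basophils, and the second (ENSMUST00000228782) at 0 and 11.3 TPM in floxed out and 18.1 and 0 TPM in ctrl basophils. The short Crlf2 transcript ENSMUST00000198960 was listed at 0 in ctrl pre-Baso library 2 and ctrl basophil library 1 and at 23.8 to 34.7 TPM in the other 6. Il18r1 transcript ENSMUST00000108044 was listed at 0 in floxed out basophil library 1 and at 3.65 to 14.0 TPM elsewhere. Computed from assigned bases per kilobase of joined exons, an alternative added after seeing this, the same 5 chains were called over both genotypes.

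Promoter sequence is shown for Il18r1 and Il7r, the 2 chains that changed most, as the 250 bases before a RefSeq start. Capitals mark the palindromic STAT motif TTCNNNGAA, which lies in 7.02% of windows of this length (Il18r1, the start of most of its TPM, chr1:40465756-40466005, plus strand; Il7r, chr15:9529877-9530126, minus strand; GRCm38.p6).
Il18r1: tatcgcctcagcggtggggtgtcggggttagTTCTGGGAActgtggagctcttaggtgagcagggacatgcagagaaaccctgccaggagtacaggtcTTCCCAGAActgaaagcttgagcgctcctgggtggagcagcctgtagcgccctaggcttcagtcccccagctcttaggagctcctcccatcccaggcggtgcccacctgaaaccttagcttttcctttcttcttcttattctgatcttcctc
Il7r: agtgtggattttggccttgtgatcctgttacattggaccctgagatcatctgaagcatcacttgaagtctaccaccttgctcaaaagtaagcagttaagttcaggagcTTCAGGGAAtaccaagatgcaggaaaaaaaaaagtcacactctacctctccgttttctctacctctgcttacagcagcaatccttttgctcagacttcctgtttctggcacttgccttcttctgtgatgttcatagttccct
The Il18r1 window held 2 matches and the Il7r window 1, and the other 9 windows of the 8 genes held 0. Letters bound by NFIL3, TTATGTAA (0.819% of windows) and TTACGTAA (0.113%), were searched on both strands and were in none of the 11 windows; that says only that these letters are not there. GATAA or TTATC lay in both Il1rl1 windows and in that of Il18rap. Matches did not overlap one another. The windows of Il1rap and Crlf2 were rich in G and C (74.4 and 71.6%, against a median of 52.4% over all windows), and the distal Il1rl1 window was poor in them (37.6%).

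Il1rl1, Il18r1 and Il18rap are neighbours on chromosome 1, on the same strand, with 0.1 kilobases between the first pair and 14.5 kilobases between the second. Around them, transcription differed from gene to gene. Of 11 genes of this region 5 were tested and 4 of these were higher in basophils (Map4k4, Il1r2, Il18r1 and Il18rap, against 20.4% of all genes), with Il1rl1 the one that was not. Map4k4, a kinase gene at the left edge, was at 13.9 and 16.4 TPM in floxed out and 17.1 and 17.0 TPM in ctrl basophils, against 6.5 and 7.82 TPM in floxed out and 7.44 and 8.68 TPM in ctrl pre-Baso (0.99 ± 0.12, adjusted p = 0.000698). Il1r2, the IL-1 decoy receptor gene, was at 1.76 and 0.731 TPM in floxed out and 2.29 and 1.16 TPM in ctrl basophils, against 0.847 and 0.698 TPM in floxed out and 0.328 and 0.396 TPM in ctrl pre-Baso, and the populations overlapped (0.64 ± 0.21, adjusted p = 0.0456); it passed the filter through basophil libraries alone. Il1r1, the signalling IL-1 receptor gene, and Il1rl2, the IL-36 receptor gene, stayed at or under 0.154 TPM. Slc9a4, Slc9a2 and Tmem182 were at 0 in all libraries, and Mfsd9 was at most 0.418 TPM.

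Ligands of these receptors were mostly low or at 0 TPM in the sorted cells. Il33 and Il1a were at 0 TPM in all 8 libraries, Tslp was at most 0.540 TPM and Il7 at most 0.0960 TPM, and Il18 at most 1.42 TPM, in ctrl basophil library 1. Of the 15 genes on the list of ligands and soluble inhibitors, 5 were tested and 4 of these were higher in basophils, against 20.4% of all genes. Their median change was 0.69, against 0.09 for all genes. Il4, the type 2 cytokine gene whose product binds Il4ra, was at 65.4 and 78.7 TPM in floxed out and 99.4 and 103 TPM in ctrl basophils, against at most 41.9 TPM in floxed out and 43.4 TPM in ctrl pre-Baso (1.03 ± 0.11, adjusted p = 0.000322). All basophil libraries were above all pre-Baso libraries, and floxed out basophils were under ctrl basophils without a call (-0.49, adjusted p = 0.374). Il15 (0.67, adjusted p = 0.0127), Il13 (0.69, adjusted p = 0.0112) and Il1b (0.88, adjusted p = 0.0228) were the others. Il13 and Il1b did not exceed 2.81 TPM, and Il1b passed the filter through basophil libraries alone.

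Other type I and interferon receptor chains were tested for 7 of 16 listed genes. Of these, 4 were higher in basophils (median 0.57), against 20.4% of all genes. Csf2rb2, which in mice encodes a beta chain of the IL-3 receptor, and Csf2rb, which encodes the beta chain that IL-3, IL-5 and GM-CSF receptors share, led them. Csf2rb was at 188 and 204 TPM in floxed out and 228 and 223 TPM in ctrl basophils, against 60.7 and 86.5 TPM in floxed out and 74.5 and 93.3 TPM in ctrl pre-Baso (1.43 ± 0.13, adjusted p = 0.000225). The near copy Csf2rb2, with which it may share reads, had 61.2 and 68.8 TPM in floxed out and 74.4 and 75.2 TPM in ctrl basophils, against 16.4 and 22.3 TPM in floxed out and 21.1 and 25 TPM in ctrl pre-Baso (1.68 ± 0.13, adjusted p = 0.000109). The interferon gamma receptor genes Ifngr2 (0.97, adjusted p = 0.000966) and Ifngr1 (0.53, adjusted p = 0.0279) followed. Among partners that Il2rg could pair with, Il2ra, Il2rb and Il9r stayed at or under 0.246 TPM and Il21r at or under 1.13 TPM, and Il15ra reached 2.61 TPM without a call (0.34, adjusted p = 0.401). Il13ra1, the other partner of Il4ra, stayed at or under 0.457 TPM.

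Downstream of the IL-33 and IL-18 receptors, 13 of 28 tested genes of the MyD88 branch were higher in basophils and 0 were lower (median 0.47), where 20.4% of all genes were higher; Relb, one of the 13, passed the filter through basophil libraries alone and had to differ. Mapk14, which encodes a p38 kinase, was at 36.6 and 38.9 TPM in floxed out and 45.6 and 46.1 TPM in ctrl basophils, against 13.0 and 15.5 TPM in floxed out and 14.2 and 16.4 TPM in ctrl pre-Baso (1.44 ± 0.11, adjusted p = 0.000111). Tnfaip3, which encodes the NF-kappaB inhibitor A20, was at 5.33 and 3.04 TPM in floxed out and 8.89 and 6.69 TPM in ctrl basophils, against 1.15 and 1.49 TPM in floxed out and 1.44 and 1.72 TPM in ctrl pre-Baso (1.44 ± 0.18, adjusted p = 0.000677). Both had all basophil libraries above all pre-Baso libraries. Irak4, the first kinase recruited by MyD88 (0.80, adjusted p = 0.00177), and Nfkbia, the NF-kappaB inhibitor alpha gene (0.77, adjusted p = 0.00178), rose too, whereas Traf6 (0.23, adjusted p = 0.271) and Map3k7 (-0.08, adjusted p = 0.678) were not called.

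Of the 20 tested genes of the JAK and STAT branch, 16 were higher in basophils and 0 lower (median 0.63), where 20.4% of all genes were higher. Socs2, Socs3, Cish and Irs2 passed the filter through basophil libraries alone and had to differ. Pim1, a kinase gene induced by STAT5, was at 45.3 and 43.0 TPM in floxed out and 52.0 and 41.0 TPM in ctrl basophils, against 11.7 and 16.0 TPM in floxed out and 17.0 and 17.4 TPM in ctrl pre-Baso (1.5 ± 0.13, adjusted p = 0.000204). Jak2, which serves the TSLP chain Crlf2 and the IL-3 receptor, changed by 1.04 (adjusted p = 0.00074). Pik3cd, a phosphoinositide kinase gene, changed by 1.02 (adjusted p = 0.000776), and Stat6, the factor downstream of the IL-4 receptor, by 0.93 (adjusted p = 0.00361). Jak3, the kinase that binds Il2rg, was at 2.18 to 3.78 TPM in basophils and 1.92 to 2.86 TPM in pre-Baso and was not called (0.18, adjusted p = 0.324).

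Cytokine and chemokine genes that basophils are known to induce through such receptors were tested for 9 of 15 listed genes. Of these, 8 were higher in basophils (median 1.28), against 20.4% of all genes. Ccl6 was the most abundant, at 1430 and 1350 TPM in floxed out and 1710 and 1730 TPM in ctrl basophils, against 249 and 290 TPM in floxed out and 144 and 215 TPM in ctrl pre-Baso (2.82 ± 0.13, adjusted p = 2.07e-05). By size of change Ccl4 (2.1, limma adjusted p = 0.000109) and Ccl9 (1.91, limma adjusted p = 7.98e-05) followed. By level Ccl3 came next, at 279 and 299 TPM in floxed out and 414 and 282 TPM in ctrl basophils (1.34, limma adjusted p = 0.000615). Neutrophils and monocytes also express several of these chemokines, and the part of the neutrophil markers in these values was not tested. Across the lists of ligands, receptors, signalling branches, targets and neighbours, 0 genes were called for genotype in either population; over all genes 7 were called in basophils and 8 in pre-Baso.

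Across the 8 libraries the chains that were higher in basophils varied together; the libraries share 4 groups, and these chains differ between them. Pearson's r on the log2(TPM + 1) scale was 0.97 between Il1rap and Il18r1, 0.96 between Il18r1 and Il7r and 0.91 between Il18r1 and Il18rap, whereas Crlf2 had r between -0.58 and -0.04 with the other chains. Among 3878 tested protein-coding genes, those most like Il7r were Zfp622 (r = 0.9957), a zinc finger gene, and Stk17b (r = 0.9953), a kinase gene; 312 genes had r of at least 0.95 with it. Those most like Il18r1 were D16Ertd472e and Arhgef3 (r = 0.9932 and 0.9915, 174 genes at 0.95 or more), and for Il1rap they were B4galnt1 and Zfand3 (0.9861 and 0.986, 177 genes). For Il18rap they were Tmem131l and Fam117a (0.9938 and 0.9826), for Il4ra Fth1 and Hp (0.9932 and 0.984), for Il2rg Mfsd13a and Tax1bp1 (0.9704 and 0.9438), for Crlf2 Gars and Cisd3 (0.9434 and 0.9178) and for Il1rl1 Cebpg and Pgrmc1 (0.9351 and 0.928). No gene reached 0.95 with Crlf2 or Il1rl1. These values describe 8 libraries in 4 groups and are given without a test.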

How the data were processed

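Per the file headers, the authors ran StringTie 2.1.4 on the Ensembl release 101 annotation of GRCm38, estimating annotated transcripts only; per the submitters' processing notes, reads were aligned with HISAT2 to mm10. The deposited tables list coverage, FPKM and TPM for each transcript, and coverage for each exon; no strand setting is given in the sources used here, and antisense genes over Il1rap and Il4ra were at 0 TPM. Gene TPM was summed over transcripts. Genes with at least 1 TPM in at least 2 of 8 libraries (12511 of 55487) were tested with limma 3.58.1 (R 4.3.3) on log2(TPM + 1), moderated by a variance trend, over all 4 groups, with Benjamini-Hochberg adjustment over all genes and a threshold of 0.05. Single values were tested by exact permutation of libraries. Sequences came from RefSeq (GRCm38.p6). The members and lists were chosen with earlier results of these data known. Named genes were those called with the smallest adjusted p in each list (up to 4), all genes of the chromosome 1 region, and those most like each member; other pathway and marker genes were named after their values were seen. The fit was tested on simulated data, in which 100 of 12511 genes were changed by 1 and 100 by 2. An added log2 change of 1 was called in 34% of changed genes for genotype in pre-Baso, 54% in basophils and 68% over both populations. For the difference of effects it was called in 11%, and between populations over both genotypes in 72%. False calls were 2.48 to 8.43% of all calls, highest for the difference of effects. The changed genes were few and had higher levels than Il4ra. These shares therefore need not hold for Il4ra, or between populations, where 33.7% of genes were called. Alternatives are given in the closing section.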

Additional observations from a re-analysis of the deposited data

Results flagged for a closer look

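With all exons counted, Il18r1 was lower in floxed out than in ctrl basophils and higher in floxed out than in ctrl pre-Baso. Each was without overlap of the 2 libraries a group, so the genotype effect on Il18r1 pointed in opposite directions there. The difference between the 2 effects was -0.77 ± 0.28 on the log2(TPM + 1) scale (limma, unadjusted p = 0.0218, adjusted p = 0.897), with 0 genes called in that comparison. It ranged between -0.98 and -0.49 over 19 alternative settings, the smallest being that without the last exon.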

How the results depend on the processing

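Changes are in log2(TPM + 1) unless stated; 2 of the alternatives, assigned bases per kilobase of joined exons and exons before the last only, were added after seeing the data. Over the alternatives, values of single chains kept direction and side of the threshold 983 times, fell under it 32 times, passed it 5 times and changed direction 69 times, the last always for values not called. Chains called over both genotypes were 5, and 3 with no filter on low values (3 to 4 with a library left out). In ctrl animals they were 3, and 5 when rescaled to protein-coding genes. In floxed out animals they were 3, and 1 with no filter (0 to 2 with a library left out, where a lone sample is assumed to vary like the other groups). For genotype and for the difference of its effects, 0 chains were called under every alternative run.
Genes called ranged between 3 and 23 for genotype in pre-Baso (8 as reported), 4 and 18 in basophils (7), 5 and 19 over both (11), 1397 and 3587 between populations in ctrl (2832), 19 and 2085 in floxed out (1363), 2872 and 4952 over both genotypes (4216), and 0 and 2 for the difference of effects (0). The cause was not tested. Replicate numbers were not shown to pair libraries (correlation of deviations -0.054 to 0.202); with the replicate block 4 chains were called in ctrl animals and 5 over both genotypes, and genotype over both populations had 7 genes called.
Directions changed for genotype in pre-Baso for Il1rl1 (0.003 rescaled to protein-coding genes, 0.005 with FPKM), and with exons before the last only for Il1rl1 (0.223), Crlf2 (-0.152), Il2rg (-0.132) and Il4ra (-0.058); with assigned bases Crlf2 was -0.063. In basophils Il18rap was 0.031 (protein-coding), 0.048 (FPKM) and 0.046 (assigned bases), and Il4ra 0.085 (exons before the last). Over both populations, with exons before the last, Il1rl1 was 0.029, Il18rap -0.005, Crlf2 -0.052 and Il4ra 0.014; Il2rg was 0.008, 0.017 and 0.019, and Il4ra 0.013, 0.026 and 0.061, with protein-coding genes, FPKM and assigned bases in that order; Il4ra was also 0.004 with median-ratio scaling and 0.003 with pseudocount 0.1. Between populations Il1rl1 was 0.030 in floxed out animals (exons before the last) and -0.031 over both genotypes (median-ratio scaling), and the difference of effects of Il4ra was 0.144 (exons before the last).
With a library left out, genotype changes in pre-Baso spanned -0.129 to 0.048 for Il1rl1, -0.098 to 0.318 for Il18rap, -0.062 to 0.252 for Il7r, -0.174 to 0.238 for Crlf2, -0.189 to 0.261 for Il2rg and -0.026 to 0.169 for Il4ra. In basophils they spanned -0.438 to 0.055 for Il1rap, -0.187 to 0.118 for Il18rap, -0.042 to 0.336 for Crlf2 and -0.265 to 0.053 for Il4ra. Over both populations they spanned -0.197 to 0.050 for Il1rap, -0.060 to 0.150 for Il18r1, -0.066 to 0.142 for Il18rap, -0.013 to 0.192 for Crlf2, -0.160 to 0.065 for Il2rg and -0.097 to 0.062 for Il4ra. Between populations in floxed out animals they spanned -0.151 to 0.106 for Il1rl1 and -0.317 to 0.095 for Crlf2. Differences of effects spanned -0.482 to 0.011 for Il1rap, -0.352 to 0.064 for Il18rap, -0.091 to 0.321 for Crlf2 and -0.393 to 0.057 for Il2rg.
The Il1rl1 membrane share, basophil minus pre-Baso, was 0.071 when taken as the ratio of last exon to shared exon coverage, and spanned -3.458 to 3.66 percentage points with a library left out; floxed out minus ctrl it spanned -9.791 to -4.018, and the coverage ratio gave -0.01. Floxed out minus ctrl log2 ratios spanned -0.118 to 0.232 for Il1rap over Il1rl1, -0.254 to 0.198 for Il18rap over Il18r1 (0.012 with pseudocount 5) and -0.936 to 0.023 for Il7r over Crlf2. Il4ra was not tested with a filter of 5 TPM. Il4ra rests on 1.4 to 3.6 kilobases of assigned sequence a library, and the Il1rl1 first exons on few reads.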

Other observations

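Marker lists of other cell types differed between the libraries in which the receptor chains were read, and their part in the receptor values was not tested. Granulocyte progenitor genes, led by Ctsg, summed to 488 to 754 TPM in floxed out and 150 to 208 TPM in ctrl basophils, against 1820 to 2270 TPM in floxed out and 1210 to 1280 TPM in ctrl pre-Baso. Monocyte, macrophage and dendritic cell genes, led by Ly6c2, summed to 62.3 to 144 TPM in floxed out and 61.3 to 187 TPM in ctrl basophils, against 32.8 to 36.3 TPM in floxed out and 23.2 to 23.4 TPM in ctrl pre-Baso. Mast cell genes, led by Cma1, did not exceed 3.14 TPM in sum, and Mcpt4, Mrgprb2 and Tpsab1 were at 0 in all 8 libraries. The sums were 0.826 to 1.48 TPM in floxed out and 0.0335 to 0.781 TPM in ctrl basophils. In pre-Baso they were 2.4 to 3.14 TPM in floxed out and 0.999 to 1.12 TPM in ctrl libraries. Cma1 was not called for genotype over both populations (1.1, limma adjusted p = 0.198). Erythroid and megakaryocyte genes, led by Itga2b, summed to 161 to 162 TPM in floxed out and 147 to 178 TPM in ctrl basophils, against 76.2 to 132 TPM in floxed out and 78.6 to 123 TPM in ctrl pre-Baso.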
